A study of Sus scrofa with 6 samples.

Results

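LIN28A and LIN28B are paralogous RNA-binding proteins, and HMGA2 is an architectural protein of chromatin. All 3 were chosen because their levels are known to decline as embryonic tissue ages, and with earlier results of these libraries in view, so the levels of the genes themselves are given below as a description with no test. The genes were looked up by symbol among the 30477 genes of the count matrices. LIN28A (ENSSSCG00000003557) and LIN28B (ENSSSCG00000037612) had a row, which makes 2 of the 3 genes. HMGA2 was matched to no row by symbol and its level was not analysed here, so its close relative HMGA1 is described further down in its place.

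The 6 single-cell libraries came from porcine midbrain-like organoids (pMLOs) grown from 1 embryonic stem cell line of an in vitro fertilised pig blastocyst, IVF_1_ pESC_FIW, with no genetic change named. Aggregates of these cells received SB431542, Noggin, SHH-C24II and CHIR99021, followed by FGF8, and were collected on days 11, 28 and 45 (D11, D28 and D45) as biological duplicates, here A and B. The D11 organoids were collected before embedding in Matrigel and the later ones after it. The medium held FGF8, BDNF and ascorbic acid on D11, and for the later days FGF8 was left out and GDNF, db-cAMP and DAPT were added, so day of culture and change of medium cannot be told apart. Nothing states how many organoids went into a library or whether A and B came from separate inductions, and p-values then measure only the spread between these libraries.

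The libraries held 13954 to 21615 cells each after filtering, 103519 of 104820 barcodes in all against 103310 cells stated by the study, and 106851387 to 180098372 unique molecular identifiers (UMIs, each standing for 1 captured RNA molecule). A D11 cell had a median of 10741 UMIs in A and 8821 in B, a D28 cell 5499.5 and 8095, and a D45 cell 2240 and 4242. Levels are therefore given mainly in CPM, the UMIs of a gene per 1000000 UMIs of the same cells. Pairs of libraries shared 55 to 119 barcodes, at most 0.65% of the smaller library. The labels give the cell type of all 6 libraries as midbrain dopaminergic neurons. Over whole libraries NR4A2, a factor of these neurons, was at 42.3 to 85.6 CPM, the midbrain factors LMX1A and EN1 at 24.2 to 114 and 6.25 to 54.0, and DDC, the enzyme that makes dopamine from its precursor, at 16.1 to 70.7. TH, the enzyme that makes the dopamine precursor, was at 11.5 to 55.1 CPM over whole libraries and SLC6A3, the dopamine transporter, at 0.294 to 2.56 CPM, while PITX3, a factor of midbrain dopamine neurons, had 10 to 32 UMIs in a library. Markers of other cell types were present too. The summed level of 8 oligodendrocyte lineage markers was 10.8 and 11.8 CPM on D11 and 1092 and 833 CPM on D45, and that of 6 fibroblast markers was 18.4 and 22.5 CPM on D11 and 854 and 2389 CPM on D45.

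LIN28A and LIN28B bind the precursors of the let-7 family of microRNAs and block their maturation. Mature let-7 in turn pairs with the 3′ untranslated regions (3′ UTRs) of the LIN28 and HMGA2 messengers and lowers them, so that the proteins and the microRNA hold each other in check, and the balance tips towards let-7 as a tissue ages. In the developing brain LIN28 proteins are known from early neural tube progenitors, and HMGA2 is known to keep young neural stem cells dividing and to hold down the CDKN2A locus. The let-7 sequences are shown first because a single run of bases, the seed, links the family to its targets. In the pig RefSeq annotation of Sscrofa11.1, 7 mature 5′ forms from 9 loci shared 1 seed, bases 2 to 8, in capitals here:
let-7a: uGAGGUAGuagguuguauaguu
let-7d-5p: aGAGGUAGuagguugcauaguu
let-7e: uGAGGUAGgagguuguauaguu
let-7g: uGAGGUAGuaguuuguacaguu

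The 7 bases that pair with this seed, CTACCTC on the messenger strand, were searched for in the longest RefSeq 3′ UTR of each gene, on the transcribed strand only. A match is a description of the sequence and not a measured site. LIN28B (chromosome 1, 71173291 to 71296131, + strand) had a match that begins at base 44 of a 3′ UTR of 915 bases, in the stretch chr1:71295245-71295267 printed here. HMGA2 (chromosome 5, 30188521 to 30329635, + strand) had one that begins at base 21 of a modelled 3′ UTR of 108 bases, in the stretch chr5:30329533-30329555. IGF2BP1 and TRIM71, also targets of let-7, had matches in the stretches chr12:25244592-25244614 and, the first of 6 in TRIM71, chr13:18830696-18830718. The coordinates span each whole stretch, of which the match is the part in capitals. All 4 lie in an exon, in the 3′ UTR, on the + strand, and the capitals mark the bases opposite the seed:
LIN28B: ccctggttgggacgtCTACCTCa
HMGA2: gccaacattcaatttCTACCTCa
IGF2BP1: tgtgcgcgaagtaaaCTACCTCa
TRIM71: aacattgcttacgtcCTACCTCa
Each of these 4 runs is followed by A, which gives the 8-base form CTACCTCA. LIN28A (chromosome 6, 83806178 to 83818550, + strand) ends at its stop codon in the RefSeq model, so its 3′ UTR was not searched. The libraries read the 3′ ends of messengers, and a level of LIN28A is compared below only with LIN28A.

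LIN28A was an early messenger in these organoids. It had 733 and 767 UMIs in the D11 libraries, 7 and 7 on D28, then 3 and 3 on D45. In CPM it stood at 4.63 and 4.26 on D11, 0.0655 and 0.0555 on D28, then 0.0253 and 0.0236 on D45. The 2 libraries of a day lay close together and no day overlapped another, though a D45 level rests on 3 UMIs. Over both libraries LIN28A was 73.7 times higher on D11 than on D28 (95% counting interval 43.8 to 135) and 182 times higher than on D45 (83.3 to 496). The ratio of D28 to D45 was 2.46, with an interval of 0.890 to 7.82 that includes no difference. These intervals are exact and cover counting error only. A level over a whole library does not tell fewer expressing cells from less RNA per cell, so the share of cells is given too. At least 1 LIN28A UMI was found in 4.38% and 3.10% of D11 cells, and in 0.0419% and 0.0430% of D28 cells.

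LIN28B was counted in every library. It stood at 156.9 and 124.8 CPM on D11, 10.03 and 32.81 on D28, then 19.5 and 10.0 on D45, from 24835, 22475, 1072, 4135, 2315 and 1272 UMIs. Both D11 libraries lay above all later ones, and the D28 and D45 libraries overlapped. The D11 level was 6.25 times that of D28 (95% counting interval 6.08 to 6.44) and 9.59 times that of D45 (9.27 to 9.92). Cells with at least 1 LIN28B UMI made up 65.5% and 47.5% on D11, 6.45% and 20.6% on D28, then 7.81% and 4.90% on D45. After thinning every cell to 1000 UMIs, which left out 6.78% to 33.2% of the cells of a library, the shares were 14.2% and 11.3%, 1.21% and 3.57%, and 2.20% and 1.39%. On D11 a cell with LIN28B held a median of 2 of its UMIs in both libraries and up to 21, and on D28 and D45 a median of 1.

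**Figure D1:**
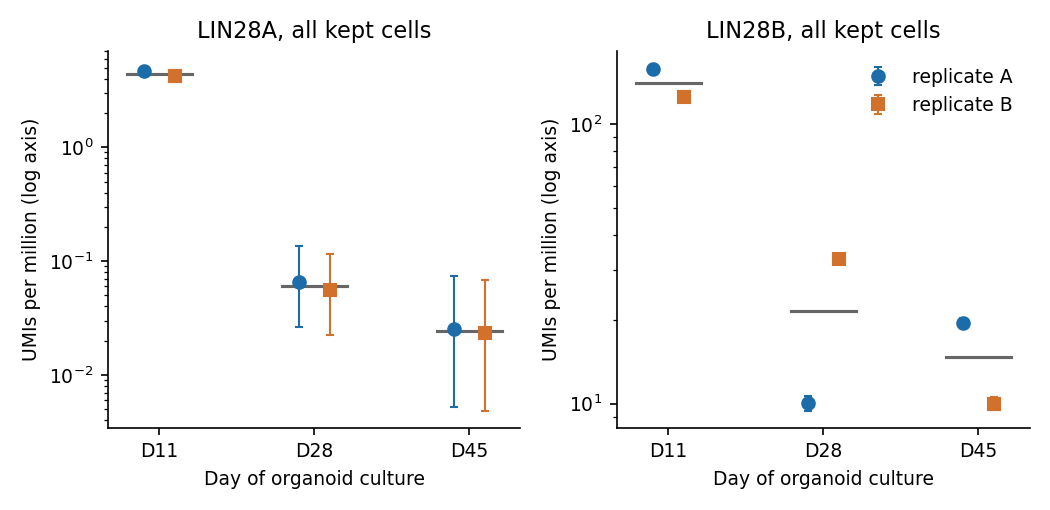
LIN28A and LIN28B in the 6 libraries in CPM on a log axis against the day, each point 1 library with its exact 95% counting interval and each grey bar the mean of a day. LIN28A drops from above 4 CPM on D11 to below 0.1 CPM on D28 and D45, while LIN28B stays between 10.0 and 32.8 CPM in the later libraries.

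The fit across the 22197 genes tested gave each difference on the log2 scale. The fit scaled the libraries by TMM, while CPM uses library totals. A fitted difference and a ratio of CPM levels therefore do not have the same size. The standard error (SE) of a difference was worked out as the size of the difference over the square root of its F statistic. LIN28A differed by -6.45 (SE 0.355) for D28 against D11 and -7.86 (SE 0.391) for D45 against D11. LIN28B differed by -3.04 (SE 0.514) and -3.68 (SE 0.529). For D45 against D28 the estimates were -1.41 (SE 0.464) for LIN28A, where the value depends on the prior count of the fit, and -0.64 (SE 0.48) for LIN28B. The LIN28A estimate rests on 14 and 6 UMIs, and the counting interval of their ratio, 0.890 to 7.82, includes no difference. Without D28 B the D45 against D28 estimate of LIN28B became 0.27 and its D28 against D11 difference -3.95. No p-value is attached to these estimates.

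The 2 D28 libraries differed in LIN28B by more than counting error. D28 B was 3.27 times D28 A over all cells (95% counting interval 3.06 to 3.50), and the same direction held in cycling cells (7.94 times), in neuronal cells (3.14 times) and in the other cells (3.51 times), classes defined below. Other genes of the same circuit were also higher in D28 B, IGF2BP1 by 2.87 times, TRIM71 by 2.45 times and IGF2BP2 by 1.84 times. HMGA1 was 1.20 times higher. The split was not limited to such genes. DICER1, which processes let-7, was at 74.8 and 131.5 CPM in D28 A and B. The neuron marker DCX was at 55.1 and 151.7 CPM, and the floor plate marker SPON1 at 283.7 and 588.6 CPM. Others were lower in D28 B, such as STMN2 at 1699 and 1046 CPM and the let-7 target CDC34 at 91.4 and 61.8 CPM. The share of all genes higher in D28 B was not worked out. Fibroblast markers summed to 1301 CPM in D28 A and 395 in D28 B, the median UMI count of the other cells was 961 in D28 A and 6520 in D28 B, and GAD2, an enzyme of GABA neurons, was at 3.67 and 45.7 CPM. The median mitochondrial share of a cell was 1.37% in D28 A and 0.814% in D28 B. The part of these differences in the LIN28B level was not tested. On D45 the order was reversed, with LIN28B in B at 0.513 times A.

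Cells were then sorted by a pair of messengers. Cycling cells had at least 1 UMI of TOP2A, the topoisomerase made by dividing cells, and fewer than 3 of STMN2, a tubulin regulator of growing neurites. Neuronal cells had at least 3 STMN2 UMIs and no TOP2A, cells past both gates were kept apart, and the rest were called other. Cycling cells made up 31.0% and 27.4% of the D11 libraries, 4.20% and 5.70% on D28, then 3.82% and 5.71% on D45. Neuronal cells made up 8.61% and 7.74% on D11, 40.0% and 39.9% on D28, then 31.4% and 29.8% on D45. On D45 the neuronal gate also took in RNA of other cell types, with fibroblast markers at 344 and 1010 CPM and oligodendrocyte lineage markers at 511 and 429 CPM against 3.22 to 7.10 CPM for both lists in D11 neuronal cells. The 8 neuron markers in this gate summed to 8704 and 9106 CPM on D11 and 3944 and 4845 CPM on D45. The median STMN2 count of its cells was 43 and 39 UMIs on D11 and 7 and 8 on D45.

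On D11 LIN28A was highest in the neuronal cells and not in the dividing ones. Neuronal cells held 16.2 and 18.5 CPM in A and B, cycling cells 3.35 and 2.47, and other cells 2.98 and 2.01, while cells past both gates were at 11.6 and 12.9. Neuronal cells exceeded cycling cells 4.83 times in A (95% counting interval 3.99 to 5.84) and 7.47 times in B (6.19 to 9.06), and other cells 5.42 and 9.16 times. Neuronal cells, 8.61% and 7.74% of the cells, carried 33.6% and 44.1% of the LIN28A UMIs of their libraries. The level climbed with the STMN2 count of the cell, from 3.05 and 2.16 CPM in cells without STMN2 to 18.4 and 21.1 CPM in cells with 30 or more UMIs of it. After thinning to 1000 UMIs, 1.80% and 1.87% of neuronal cells had a LIN28A UMI, against 0.318% and 0.313% of cycling cells and 0.243% and 0.131% of other cells.

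On later days few LIN28A UMIs were counted in any class. In cycling cells it was at 0 UMIs in all 4 libraries of D28 and D45, which makes it at least 17.6 times lower on D28 and at least 20.5 times lower on D45 than on D11, with a floor of 3 UMIs over the group. The lower 95% counting limits of these ratios were 14.2 and 16.6. With the gates applied to cells thinned to 1000 UMIs, cycling cells had 12 UMIs on D11 and 0 on D45, with a lower limit of 0.437, so no difference was detectable at that depth. In neuronal cells it was at 0.126 and 0.0986 CPM on D28 and 0.0609 and 0.0223 CPM on D45, from 1 to 6 UMIs a library.

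**Figure D2:**
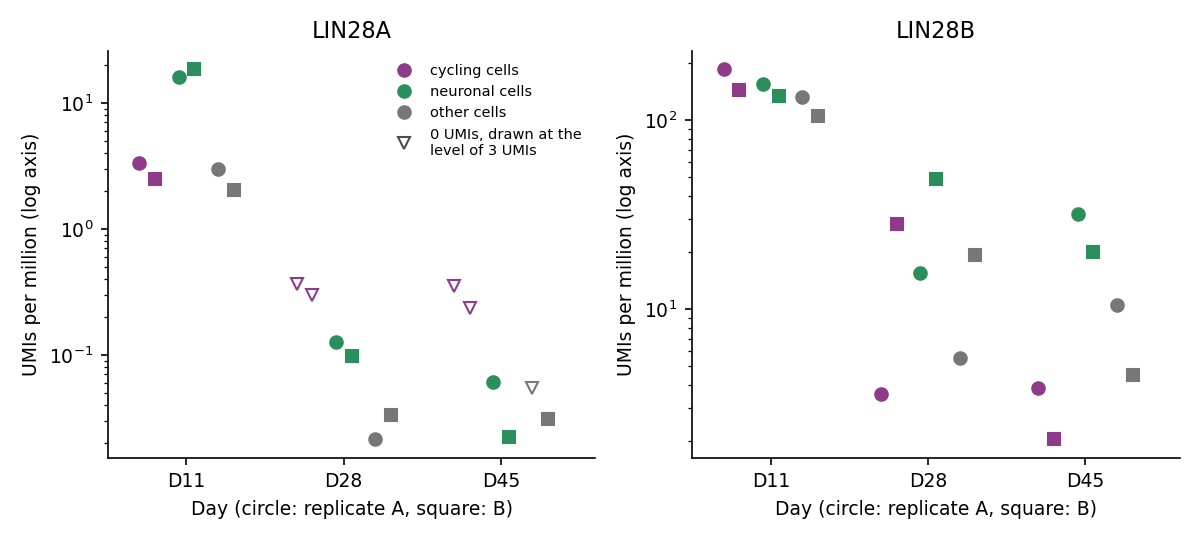
LIN28A and LIN28B by class of cell and library, in CPM on a log axis against the day, each point 1 class of 1 library, with no error bars, and classes with 0 UMIs drawn as open triangles at the level that 3 UMIs would give. On D11 the neuronal cells lead for LIN28A at 16.2 and 18.5 CPM, and on D45 they lead for LIN28B at 32.0 and 20.1 CPM.

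The order of the cycling, neuronal and other cells by LIN28B level was not the same on each day. On D11 cycling cells held 186 and 145 CPM, neuronal cells 156 and 135, and other cells 133 and 105. Cells past both gates, at 181 and 150 CPM, were below cycling cells in A and above them in B. On D28 neuronal cells led with 15.6 and 49.1 CPM against 3.54 and 28.1 in cycling cells and 5.55 and 19.5 in other cells. On D45 neuronal cells held 32.0 and 20.1 CPM, cycling cells 3.84 and 2.05, and other cells 10.6 and 4.47. Cells past both gates lay between cycling and neuronal cells on both later days, at 9.47 and 37.9 CPM on D28, then 20.6 and 10.8 CPM on D45. Within each library the ratio of neuronal to cycling cells was 0.839 and 0.931 on D11, 4.41 and 1.74 on D28, then 8.34 and 9.81 on D45. The D45 ratios fell on the log2 scale from a mean of 3.18 to 1.86 when cells past both gates counted as cycling, and to 1.38 when the gates themselves were applied to cells thinned to 1000 UMIs.

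The ratio of the LIN28B level on D11 to that on D45 was 59.4 in cycling cells (95% counting interval 46.0 to 78.0), 16.3 in other cells (15.2 to 17.4) and 5.49 in neuronal cells (5.23 to 5.76). These intervals leave out the spread between libraries, and the ratios in cycling and in other cells depend on the gates. With cells past both gates counted as cycling the ratio in cycling cells was 22.4 (19.7 to 25.5). With the gates applied to cells thinned to 1000 UMIs the ratios were 15.2 (7.67 to 35.3) in cycling cells, from 8 UMIs on D45, 7.43 (6.70 to 8.27) in other cells and 5.13 (4.12 to 6.44) in neuronal cells. Markers of other cell types also moved within the cycling gate. In cycling cells floor plate markers summed to 1776 and 1744 CPM on D11 and 249 and 323 CPM on D45, and fibroblast markers to 17.7 and 21.4 CPM on D11 and 1018 and 2618 CPM on D45. Oligodendrocyte lineage markers went from 9.20 and 10.3 to 923 and 710 CPM, and astrocyte markers from 45.5 and 43.1 to 660 and 567 CPM. Their part in the ratio was not tested. Cycling cells gave 45.7% and 43.1% of all LIN28B UMIs on D11 but 1.43% and 2.04% on D45, while neuronal cells gave 9.57% and 11.0% on D11 and 68.1% and 71.0% on D45.

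The counts of the gate genes ranked the cells in the same way. On D11 LIN28B was higher in cells with more TOP2A, from 137 and 111 CPM in cells without it to 190 and 154 CPM in cells with 5 or more UMIs, and on D45 it was lower over the same bins, from 20.7 and 10.9 to 5.21 and 2.19 CPM. Against STMN2 on D11 it went from 154 and 120 CPM in cells without STMN2 to 182 and 147 CPM at 3 to 9 UMIs. In cells with 30 or more UMIs it was at 155 and 136 CPM. On D45 it went from 8.55 and 4.02 CPM without STMN2 to 37.4 and 27.1 CPM at 10 to 29 UMIs, with 34.6 and 22.6 CPM at 30 or more. The median UMI count also rose over those D45 bins, from 1106.5 and 1531.5 to 12926 and 12207, and its part in these levels was not tested.

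**Figure D3:**
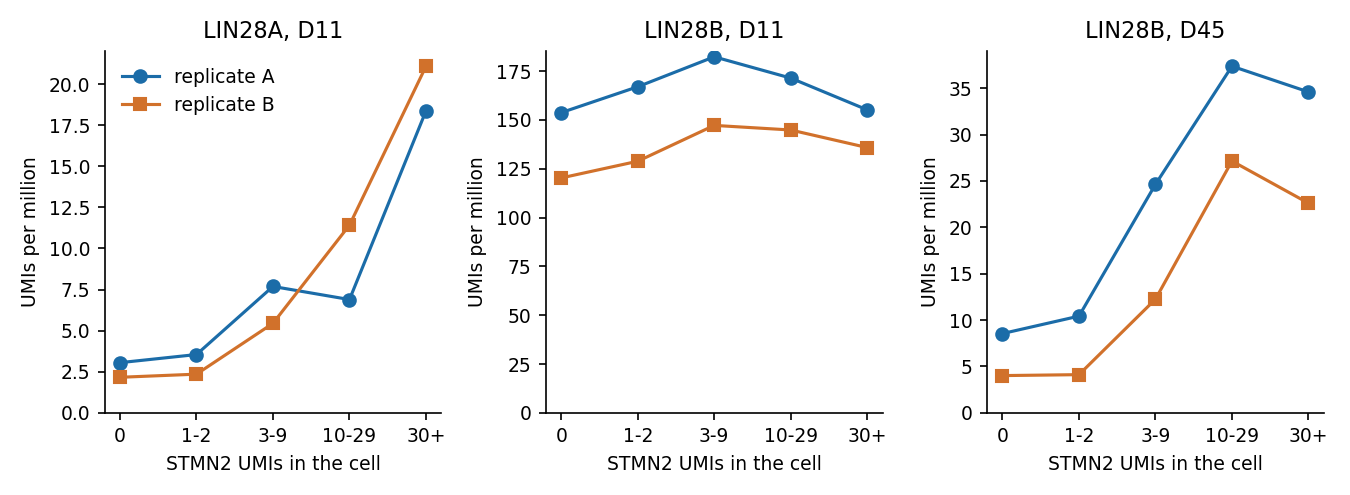
LIN28A and LIN28B in CPM against the number of STMN2 UMIs of the cell, in 5 bins, with 1 line for each of A and B, LIN28A on D11 and LIN28B on D11 and D45. The D11 lines of LIN28A climb to 18.4 and 21.1 CPM in the last bin, and the D45 lines of LIN28B peak at 37.4 and 27.1 CPM in the bin of 10 to 29 UMIs.

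Cells were also chosen on D45 by markers of other cell types, with no condition on STMN2. Cells with 10 or more UMIs of MBP, a myelin protein of oligodendrocytes, held 4.31 and 2.43 CPM, and after thinning to 1000 UMIs 0.312% and 0.342% of them had LIN28B, 2 cells in each library. The exact intervals of this share ran from 0.0378% to 1.12% in A and from 0.0415% to 1.23% in B. Neuronal cells stood above them at 3.09% and 2.17%, and the other cells were at 1.60% and 0.981%. The share in MBP cells is not a clean measure of free RNA, since some of these cells also had 3 or more STMN2 UMIs. The part of free RNA in the neuronal level was not tested. Cells with SOX10, a factor of the oligodendrocyte lineage, held 6.96 and 4.67 CPM, cells with FOXA2, a floor plate factor, 6.14 and 4.46, and cells with 2 or more UMIs of AQP4, the water channel of astrocytes, 3.84 and 1.52. Cells with 5 or more UMIs of COL1A1, a collagen of fibroblasts, held 1.87 and 0.823 CPM, and cells with 2 or more UMIs of FOXJ1, the regulator of motile cilia, 1.98 and 0.293 CPM. All of these lay below the neuronal cells of their own library, and the last rests on 1 UMI in B. Of the cells in these gates 11.0% to 40.2% had 3 or more STMN2 UMIs, the FOXA2 gate with 40.2% and 34.0% and the MBP gate with 21.5% and 18.5%. Without them, an alternative chosen after seeing the data, LIN28B was at 4.41 and 1.77 CPM in cells with FOXA2, 4.06 and 2.35 with SOX10, 3.42 and 2.36 with MBP and 1.57 and 0.376 with AQP4, the last from 4 UMIs in B.

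**Figure D4:**
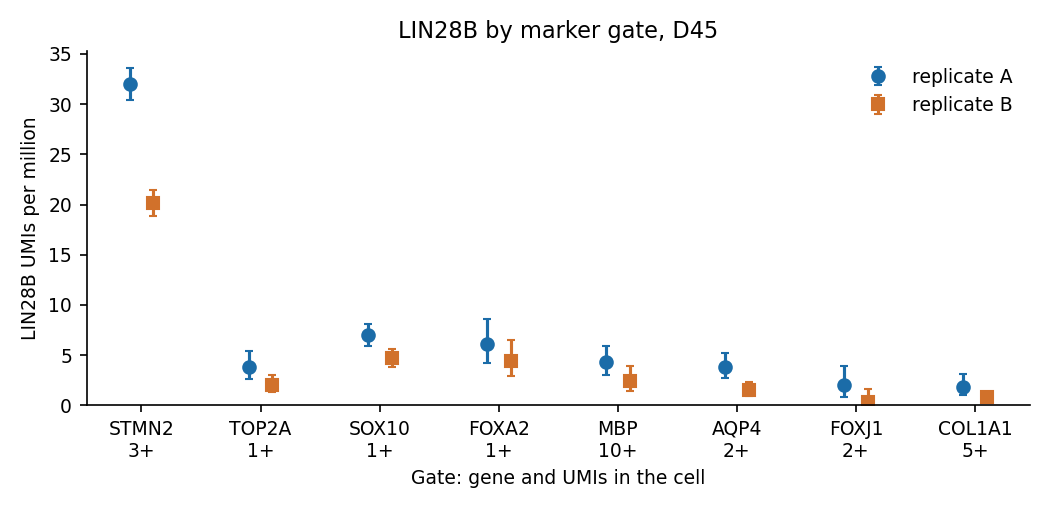
LIN28B in CPM in D45 cells chosen by marker messengers, for libraries A and B, with exact 95% counting intervals. Neuronal cells stand at 32.0 and 20.1 CPM and every glial, floor plate, fibroblast and ciliated gate below 7 CPM.

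The paralogs were then compared within single D11 cells. Among neuronal cells, those with a LIN28A UMI held 134 and 124 CPM of LIN28B and those without held 162 and 138. In cycling cells the order was the other way round, 225 and 165 CPM with LIN28A against 184 and 144 without, and in other cells it was 179 and 144 against 131 and 105. Cells with LIN28A were also deeper, with median UMIs of 15456 and 15193 against 10564 and 9712.5 in neuronal cells. Across the 18 sums of 3 classes in 6 libraries, which share libraries and depth, the log2 levels of LIN28A and LIN28B had a Pearson correlation of 0.770. Among the genes most like LIN28A of 10621 compared were KCP (0.967) and KMT5C (0.919), and the 3 most like LIN28B were DSG2 (0.973), SCUBE1 (0.964) and SSBP3 (0.959). KCP, which codes for a secreted BMP modulator, was at 10.2 and 9.64 CPM on D11 and at 1.15 and 1.51 CPM on D45, and DSG2, a desmosomal cadherin, went from 61.2 and 58.4 CPM to 11.2 and 10.8 CPM.

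The rest of the circuit was read from lists of genes tested with the quasi-likelihood test of edgeR, with p-values adjusted over all genes tested (Benjamini-Hochberg, threshold 0.05). Of all 22197 genes, 17.3% rose and 17.4% fell between D11 and D45, 12.5% rose and 10.6% fell between D11 and D28, and 4.51% rose and 4.95% fell between D28 and D45. Among 24 known let-7 targets tested, 17 fell, 1 rose and 6 were not called between D11 and D45, with a median log2 difference of -1.13 against -0.012 for all genes. Between D11 and D28, 14 of 24 fell and 10 were not called, with a median of -1.01. Between D28 and D45, CDK6 and NR2E1 rose, NRAS fell and 21 were not called, and these counts depended on single libraries and on the processing, as described below. With library totals in place of TMM scaling the median of all genes moved to 0.397 for D45 against D11, the share of calls that were higher from 49.9% to 74.6%, and the targets that fell to 11. For D28 against D11 the corresponding share moved from 54.3% to 77.2% with a median of 0.304 and 9 targets that fell, and for D45 against D28 from 47.7% to 58.8% with a median of 0.111. Leaving out D11 A brought the 17 targets to 10, and leaving out D11 B, D45 A or D45 B to 11. Leaving out D11 A or D11 B brought the 14 to 7 and 8.

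The largest falls among the targets were those of TRIM71, PRTG, MYCN and HMGA1. TRIM71, a ubiquitin ligase of early embryos, was at 26.1 and 23.7 CPM on D11, 2.61 and 6.40 on D28, then 2.68 and 2.02 on D45, a log2 difference of -3.82 (SE 0.375, edgeR adjusted p = 0.000691). PRTG, a receptor of the early neural tube, went from 502 and 406 CPM to 56.0 and 53.9 CPM (-3.45, SE 0.367). MYCN, a transcription factor of growing progenitors, went from 41.3 and 36.9 CPM to 6.30 and 6.39 CPM (-3.03, SE 0.211). In all 3 the D45 libraries lay below both D11 libraries, which the rule for naming these genes required.

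HMGA1, the relative of HMGA2, was at 397 and 398 CPM on D11, 62.2 and 74.4 on D28, then 75.9 and 72.4 on D45, a log2 difference of -2.83 for D45 against D11 (SE 0.178, edgeR adjusted p = 0.00026). Most of the fall was in place by D28. Unlike LIN28B on D45, HMGA1 remained higher in cycling cells, at 134 and 105 CPM, than in neuronal cells, at 63.2 and 71.4 CPM. Of the 5 high mobility group genes tested 4 fell and 1 was not called (median -1.41), where 17.4% of all genes fell. The others that fell were HMGB2 (-2.39), HMGN1 (-1.41) and HMGN2 (-1.30), for which reads from near-identical copies in the genome may be shared. Their list moved together with the mitosis markers, of which 7 of 7 fell between D11 and D45 (median -2.73), and the part of cell division in it was not tested.

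The IGF2BP genes code for RNA-binding proteins that stabilise messengers in the embryo. IGF2BP1 was at 69.8 and 56.9 CPM on D11, 10.4 and 29.8 on D28, then 15.2 and 11.2 on D45 (-2.68, SE 0.406, edgeR adjusted p = 0.0033). IGF2BP3 fell by 1.23 and IGF2BP2 by 1.11 on the log2 scale. IGF2BP1 shared the D28 split of LIN28B but not its place, since on D45 it was at 14.1 and 11.9 CPM in cycling cells and 14.6 and 9.45 CPM in neuronal cells. CDK6, a kinase of the cell cycle, was the 1 target that rose, from 48.9 and 37.0 CPM to 106 and 107 CPM (0.91, SE 0.177, edgeR adjusted p = 0.00839). That call was lost without D11 B, D45 A or D45 B (edgeR adjusted p = 0.0947, 0.0508 and 0.0623).

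**Figure D5:**
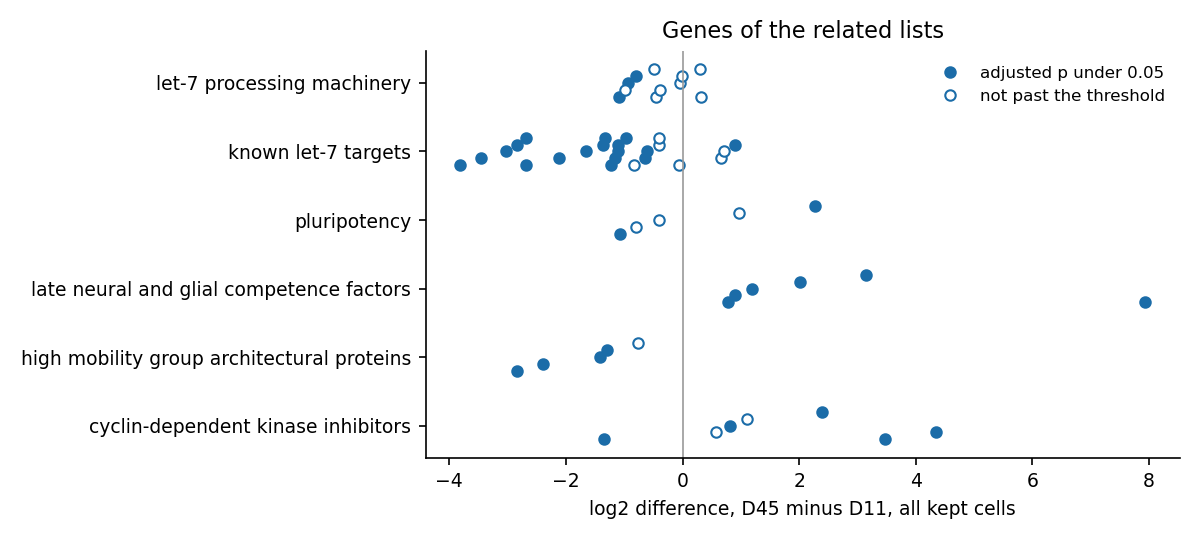
Log2 difference of D45 against D11 for each gene of the 6 lists in whole libraries, 1 point a gene, filled where the adjusted p was under 0.05 and open otherwise, and spread up and down only for legibility. The let-7 targets lie mostly below 0 with a median of -1.13, and the late neural and glial factors above it with a median of 1.60.

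The falls of the targets were seen in each class of cell. The markers within the cycling and neuronal classes differed between the days, as given above, and their part in these falls was not tested. In cycling cells 14 of 24 fell and 2 rose, where 9.2% of 15617 genes fell and 15.1% rose. In neuronal cells 16 fell and 2 rose, where 12.6% of 19844 genes fell and 11.7% rose. In other cells 16 fell and 1 rose, where 14.8% of 20378 genes fell and 19.5% rose. The counts that fell went down when 1 library of D11 or D45 was left out, to 4 or 5 in cycling cells, to 5 to 9 in neuronal cells and to 8 to 11 in other cells. The counts that rose also depended on single libraries, as described below. CDK6 rose in all 3 classes, with the largest estimate in neuronal cells (2.49 on the log2 scale). MYC, named after its values were seen, rose by 1.82 in cycling cells (7.60 and 9.34 CPM on D11 against 36.5 and 30.7 on D45) and fell by 0.95 in neuronal cells (19.3 and 19.7 against 11.0 and 14.6). NR2E1 was the other gene that rose in neuronal cells (1.75).

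Of 11 tested genes that process, load, tail or degrade let-7 or its precursor, 3 fell and 8 did not pass the test between D11 and D45 (median -0.45), where 14502 of all 22197 genes did not pass it. DIS3L2, which degrades the precursor, and TUT4 and TUT7, which tail it, were among the 8. The 3 that fell were TARBP2, a partner of Dicer (-1.09), KHSRP, which favours let-7 maturation (-0.94), and DICER1 itself (-0.79), whose call was lost when any 1 of the D11 and D45 libraries was left out (edgeR adjusted p from 0.123 to 0.174). Of 5 pluripotency genes tested KLF4 rose (2.27) and DNMT3B fell (-1.08), with 3 not called. This is near the shares of all genes, of which 17.3% rose and 17.4% fell. KLF4 was at 6.91 and 2.48 CPM on D28 and 6.30 and 14.7 on D45, the library order of the fibroblast markers, whose part was not tested.

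Factors of late neural and glial competence rose. This was so for all 6 tested between D11 and D45 (median 1.60), led by the nuclear factor I genes, regulators of the onset of gliogenesis. That count depended on single libraries, as described below, while NFIX, NFIB and NFIC kept their calls. NFIX was at 0.379 and 0.328 CPM on D11, 76.0 and 36.8 on D28, then 101 and 129 on D45 (7.94, SE 0.537, edgeR adjusted p = 0.000283). NFIB rose by 3.15, NFIC by 2.01 and ZBTB20 by 1.18 on the log2 scale. In neuronal cells 5 of 6 rose, where 11.7% of genes rose. Over whole libraries the oligodendrocyte lineage and astrocyte markers rose for 8 of 8 and 3 of 5 genes, where 17.3% of all genes rose. In neuronal cells these markers rose for 7 of 8 and 4 of 5 genes. The part of these cell types in the whole-library values was not tested.

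Of 7 cyclin-dependent kinase inhibitors, which halt the cell cycle, 4 rose, 1 fell and 2 were not called between D11 and D45 (median 1.10). Of all genes 17.3% rose and 17.4% fell. CDKN2A, the locus that HMGA2 is known to hold down, was at 0.0885 and 0.139 CPM on D11, 1.98 and 0.587 on D28, then 1.09 and 5.04 on D45 (4.35, SE 0.987, edgeR adjusted p = 0.0148). It was higher in both D45 libraries than on D11, but the D28 and D45 libraries overlapped, and it varied with the fibroblast markers between libraries, since D28 A and D45 B were the higher library of their day for both. The part of fibroblasts in its level was not tested. Its call was lost when D11 A, D11 B or D45 B was left out (edgeR adjusted p = 0.0887, 0.0711 and 0.0759). CDKN2B (3.47), CDKN2D (2.40) and CDKN1B (0.81) rose and CDKN1C (-1.35) fell. CDKN2B was at 2.49 and 1.14 CPM on D28 and 0.817 and 2.72 on D45, and CDKN2D at 2.36 and 1.31, then 2.07 and 5.18. Both thus followed the library order of the fibroblast markers, whose part was not tested.

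Other calls between D11 and D45 also depended on single libraries. Those of DNMT3B, HMGN1, HMGN2, IGF2BP2, ZBTB20 and CDKN1B were lost when any 1 of D11 A, D11 B, D45 A and D45 B was left out (edgeR adjusted p from 0.0552 to 0.191), and those of KLF4, KHSRP, CDKN2B and CDKN2D without D11 A, D11 B or D45 B (0.0537 to 0.182). TARBP2 lost its call without D11 B (0.0879) or D45 A (0.0585) and IGF2BP3 without D11 A (0.051). The calls of TRIM71, PRTG, MYCN, HMGA1, IGF2BP1, HMGB2, NFIX, NFIB, NFIC and CDKN1C were kept with each library left out in turn.

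The known targets were listed as targets of let-7 in other tissues and species, so that many of them carry a seed match is no finding. A match CTACCTC was found in the 3′ UTR of 19 of 25 known targets (76%) and of 1561 of 18749 genes in all (8.33%), and the 8-base form in 12 of 25 (48%) and 3.01%. Of the 17 tested targets with a match 13 fell between D11 and D45, and of the 6 without one 4 fell, CDK6 having no 3′ UTR in its model. Among all other tested genes, 24.5% of 436 with the 8-base form fell and 17.2% rose, against 21.1% and 17.2% of 11814 without a match, and the medians were -0.098 and -0.093. Between D11 and D28, 13.3% of those with the 8-base form fell and 11.0% rose, against 12.1% and 13.0% without a match, with medians of -0.145 and -0.012. With the 7-base form, between D11 and D45, of 1193 genes 21.1% fell and 19.2% rose, with a median of -0.065. Between D28 and D45, 4.36% of those with the 8-base form fell against 6.08% without a match. Within 3′ UTRs of 1000 to 3000 bases the order was the other way round, 7.10% against 4.53%, with medians of -0.0445 and 0.0126. Within 3′ UTRs of 1000 to 3000 bases 29.7% of 155 genes with the 8-base form fell between D11 and D45 against 17.9% of 4021 without a match, with medians of -0.25 and -0.025. These shares were computed after values were seen and carry no test.

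The let-7 microRNAs themselves are too short for this assay, which captures messengers with a poly-A tail. Rows named for let-7 precursors held few UMIs. ssc-let-7f-2 had 14, 16, 7, 9, 22 and 50 UMIs in the 6 libraries in order of day, MIRLET7I had 9, 6, 1, 1, 5 and 2, and the other 7 rows had at most 3 UMIs in any library. The level of mature let-7 was thus not measured here.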

How the data were processed

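Single cells of 6 organoid libraries, 2 for each of 3 days, were sequenced by the authors with the GEM-X 3′ kit, and the deposited matrices hold UMI counts per gene and cell from Cell Ranger 8.0.1 on Sscrofa11.1. The submitters' processing notes also name Seurat 4.3.0. Values are raw counts, not normalised. Cells with 200 to 7000 genes and at most 10% of UMIs in 13 mitochondrial genes were kept, after the study's filter, and no doublet caller was run. Counts were summed per library, or per library and class, and tested with edgeR 4.0.16 (TMM, filterByExpr, quasi-likelihood test, Benjamini-Hochberg at 0.05) in R 4.3.3, all days in 1 fit. The test was checked on simulated data. DESeq2 1.42.0, other scalings, no filter on low counts, other cell filters and gates, a replicate block and leaving out each library were tried as alternatives, and cells of 1000 or more UMIs without thinning were added after the data were seen. Total counts ranged from 106851387 to 180098372 UMIs a library. Intervals are exact at 95% (Poisson for levels, binomial for shares and ratios) and cover counting error only, with a floor of 3 UMIs. Sequences and loci were read from RefSeq on Sscrofa11.1 with Python 3.11.15. Of the 30477 gene rows, 16266 carried a symbol and 844 more were named through the reference tables.

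The genes and the lists of let-7 machinery, let-7 targets, pluripotency, late competence, high mobility group and kinase inhibitor genes, and the cell type markers, were chosen with earlier results of these data known, and p-values are adjusted over all genes tested. In each list up to 4 rises and 4 falls with the largest estimates and no overlap of libraries were named, with the IGF2BP genes, TRIM71, HMGA1 and CDKN2A whatever their values. For likeness, the 3 genes with the highest Pearson r of log2(CPM + 1) were named, among genes with a mean of at least 5 CPM, and 1 of them is not reported here. CDKN2A was matched through its gene ID. No row was matched for CDC25A, SALL4, POU5F1, SOX2, UTF1, TDGF1, L1TD1, HMGB1, HMGB3, HMGN5, MKI67 and S100B, which were not analysed here.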

Additional observations from a re-analysis of the deposited data

How the results depend on the processing

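Under the alternatives run, 310 of the main results' values stayed close, 20 became stronger, 91 weaker and 19 moved. These values are mainly counts of list genes called and LIN28 differences. A count that stayed close could still change within a set ratio. A LIN28 difference stayed close if it changed by no more than the pooled SD of log2 CPM, 0.116 for LIN28A and 0.812 for LIN28B. Among called values 0 reversed, while the D45 against D28 estimates of LIN28A and LIN28B, which carry no test, changed sign under an alternative given below. All 25 list genes named between D11 and D45 kept their direction under every alternative. With library totals the calls of DNMT3B, KHSRP, IGF2BP2 and DICER1 were lost (edgeR adjusted p = 0.164, 0.118, 0.118 and 0.317), and with thinned cells those of DNMT3B (0.146) and CDKN2B (0.0502). DESeq2 called 5 list genes higher and 5 lower for D45 against D28 (edgeR 3 and 1), of which 3 were let-7 targets that fell, and 2 targets higher in other cells. With library totals in place of TMM, targets that fell numbered 9 for D28 against D11 and 11 for D45 against D11, where 2 rose and 16 list genes fell, and 1 rose and 0 fell for D45 against D28, where 0 list genes fell. The LIN28A log2 differences were then -6.18, -7.46 and -1.27 for D28 against D11, D45 against D11 and D45 against D28. With all deposited barcodes LIN28A gave -7.99 for D45 against D11 and -1.65 for D45 against D28, and with cells thinned to 1000 UMIs -8.98 for D28 against D11, -5.99 for D45 against D11 and 2.99 for D45 against D28, values that rest on 0 or 1 UMI in the later libraries. Thinning also gave 2 list genes lower and 1 target higher for D45 against D28. The log2 ratio of LIN28B in neuronal over cycling cells on D45 (3.18) was 2.99 with a gate of 2 TOP2A UMIs, 1.86 with cells past both gates counted as cycling, and 1.38 with gates on thinned cells. The ratio over other cells (1.88) was 0.79 with gates on thinned cells, and that of the thinned shares went from 1.05 to 1.61 at 2000 UMIs. On D28 the thinned neuronal over cycling ratio was not computed, since 0 thinned cycling cells of D28 A had a LIN28B UMI. The cause of these changes was not tested.

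The A minus B differences of 2 days correlated at -0.321, 0.048 and -0.195 across genes, and the main fit did not treat the letters as pairs. Whether libraries of the same letter share an induction cannot be told from these values, as each difference rests on 2 libraries that also differ in cell types and depth. With the replicate block 1 list gene rose and 0 fell for D45 against D28, the former a let-7 target, and in cycling cells 9 list genes fell (17 without the block), 9 of them targets.

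Leaving out 1 library at a time, which leaves a day with 1 library assumed to vary like the others, moved counts most. For D28 against D11 list genes higher ranged from 2 to 8 and lower from 8 to 28, and targets lower from 7 to 19, with LIN28A from -6.67 to -6.21 and LIN28B from -3.95 to -2.47. For D45 against D11 list genes higher ranged from 3 to 18 and lower from 13 to 34, targets higher from 0 to 3 and lower from 10 to 20, with LIN28A from -7.87 to -7.78 and LIN28B from -4.19 to -3.30. For D45 against D28 list genes higher ranged from 0 to 13 and lower from 0 to 11, targets higher from 0 to 5 and lower from 0 to 9, with LIN28A from -1.65 to -1.14 and LIN28B from -1.15 to 0.27. Within classes, list genes higher and lower and targets higher and lower ranged from 2 to 17, 4 to 29, 0 to 3 and 4 to 18 in cycling cells, from 4 to 15, 7 to 27, 1 to 2 and 5 to 18 in neuronal cells, and from 5 to 18, 10 to 32, 1 to 3 and 8 to 20 in other cells. The log2 ratio of neuronal over cycling cells ranged from 2.27 to 2.90 for LIN28A on D11 and, for LIN28B, from -0.25 to -0.10 on D11, 0.80 to 2.14 on D28 and 3.06 to 3.29 on D45, and the ratio over other cells from 2.44 to 3.20 for LIN28A on D11 and 1.60 to 2.17 for LIN28B on D45. Depth limits LIN28A on D28 and D45, where no library had more than 7 UMIs.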

Other observations

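Neuronal cells with a UMI of a LIN28 gene were set beside neuronal cells without one, for genes of at least 30 CPM in one of the sides, ranked by the smaller of the 2 libraries' log2 differences with 5 CPM added to each side. This rule was chosen after the data were seen and carries no test. On D11, 188 and 273 neuronal cells had LIN28A and 1081 and 1400 had none, and the former had more STMN2, with medians of 83.5 and 103 UMIs against 36 and 30. CBLN4, a secreted synapse organiser, led the genes that were higher with LIN28A, at 117 and 122 CPM against 36.1 and 56.2. CRABP1, a retinoic acid binding protein, was at 1584 and 2339 CPM against 897 and 1236, and MET, the receptor of hepatocyte growth factor, at 130 and 111 CPM against 68.0 and 58.4. On the lower side were SPON1, an extracellular protein of the floor plate, at 71.7 and 66.3 CPM against 214 and 220, and NKX2-1, a ventral forebrain factor, at 14.1 and 7.37 CPM against 36.3 and 34.3. The summed floor plate markers were 170 and 185 CPM with LIN28A and 412 and 464 CPM without, and their part in these differences was not tested.

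On D45, 1026 and 616 neuronal cells had LIN28B and 5343 and 4931 had none. ZFHX3, a zinc finger homeodomain factor, was at 153 and 192 CPM with LIN28B and 86.4 and 105 CPM without, and PPFIA2, a protein of the presynaptic active zone, at 566 and 595 CPM against 344 and 311. The genes that were lower with LIN28B were led by COL3A1, at 6.63 and 39.2 CPM against 88.2 and 259, and COL1A1, at 4.49 and 40.6 CPM against 71.0 and 259, both fibroblast collagens, and included OLIG1, a factor of the oligodendrocyte lineage, at 5.70 and 3.03 CPM against 46.5 and 34.3. Cells with LIN28B were also deeper, with median UMIs of 9891.5 and 9341.5 against 6398 and 6539. Their median mitochondrial share was lower, at 0.418% and 0.689% against 0.683% and 0.972%. The part of depth and of this share was not tested.

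Between D11 and D45, where 17.3% of all genes rose and 17.4% fell, edgeR called 7 of 7 floor plate markers lower and 4 of 8 neuron markers higher. Of neural progenitor markers 2 of 6 were called higher and 3 lower, of fibroblast markers 4 of 6 higher and of ciliated cell markers 2 of 3 higher. For microglia and for endothelium alike 1 of 4 markers was called higher, which is near the share of all genes. The microglia markers AIF1, CSF1R and CX3CR1 were at 1.25 CPM or less in every library.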
